A study of Mus musculus with 4 samples.

Results

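Transcripts of 10 genes that restrain MAP kinase signalling were examined in lineage-negative mouse bone marrow cells with and without Atad3a deletion. They were 6 dual-specificity phosphatases (Dusp1, Dusp2, Dusp4, Dusp5, Dusp6 and Dusp10), the Sprouty genes Spry1 and Spry2, and the Sprouty-related genes Spred1 and Spred2. A probe was taken as a member when its gene name in the scanner table, with case ignored, or its platform symbol was one of these names. This gave 18 of the 45281 probes on the array, for 9 of the 10 genes. No probe matched Spry1, which was not analysed here. A probe was tested when its signal exceeded the negative control beads at a detection p-value under 0.05 on at least 2 of the 4 arrays, which left 10 member probes for 7 genes. Spry2 and Spred2 did not reach this.

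MAP kinases are switched on by phosphorylation of a threonine and a tyrosine, and the dual-specificity MAP kinase phosphatases switch them off by removing both phosphates. Most of these phosphatases are themselves products of MAP kinase signalling, as are the Sprouty proteins, so that their transcripts are part of a negative feedback loop. Sprouty proteins block the path from receptor tyrosine kinases to RAS and ERK. Spred proteins bring neurofibromin to the membrane, where it inactivates RAS, and in blood progenitors these brakes act downstream of cytokine and growth factor receptors.

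The control samples, labelled Atad3afl/fl, carried floxed alleles of Atad3a, which encodes an ATPase of the inner mitochondrial membrane. The deletion samples, labelled Atad3afl/flMx1Cre, carried the same alleles and Mx1Cre, a Cre recombinase driven by an interferon-inducible promoter. Both groups, of 2 samples each, received poly I:C, the synthetic RNA that induces Mx1Cre, 12 days before collection. No source used here gives the age or sex of the mice, or whether a sample was 1 animal or a pool. Only the deletion group carried Cre, so an effect of Cre and one of Atad3a loss cannot be told apart. Nothing says that the replicates were separate animals, so p-values reflect the scatter among these 4 samples and that scatter may be technical. With 2 arrays per group no relabelling test can give a p below 0.333, and the number of arrays limits the precision.

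Signals were background corrected, quantile normalized and put on a log2 scale, and each gene was read from its brightest detected probe. Between 37.5% and 39.9% of probes were detected on an array, and the lowest detected signals lay between 4.94 and 5.07 log2 units. Across tested probes the control arrays correlated at 0.986 and the deletion arrays at 0.990, against 0.923 to 0.942 between groups. Atad3a itself had scanner signals of 2050.2 and 2485.5 in controls and 1021.2 and 915.8 after deletion. Its normalized level fell by 1.07 on the log2 scale (SE 0.13, adjusted p = 0.00866), and the call was lost without deletion replicate 2 (adjusted p = 0.0646). Its single probe was not placed relative to the floxed exons. If it lies outside them, its level is no check of the genotype.

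After deletion Dusp4, Dusp6 and Spred1 were higher and Dusp1 was lower, while Dusp2, Dusp5 and Dusp10 did not pass by their brightest probes. Calls were made with limma at an adjusted p under 0.05, after Benjamini-Hochberg adjustment across every tested probe. Of the 7 tested members 3 rose and 1 fell, where 29% of all 10405 named genes tested were called, 14.8% higher and 14.2% lower. The median log2 change was 0.35 over these 7 members and 0.000365 over all genes. Dusp4 entered the test only through the deletion arrays, so the count and the median are descriptions of these 7 genes. The groups did not overlap for 3 members with deletion higher and 2 with deletion lower, and over all genes this held for 73% in either direction, 36.9% with deletion higher and 36.1% with deletion lower. The 4 calls were sensitive to single arrays: 1 member was called without control replicate 1 (Dusp1), 1 without control replicate 2 (Dusp4), 1 without deletion replicate 1 (Dusp4) and 0 of the 7 without deletion replicate 2. In that last limma fit 3 members, Dusp1, Dusp4 and Spred1, had an unadjusted p under 0.05. Called genes over the whole array also fell, from 3015 to 728, without deletion replicate 2.

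**Figure D1:**
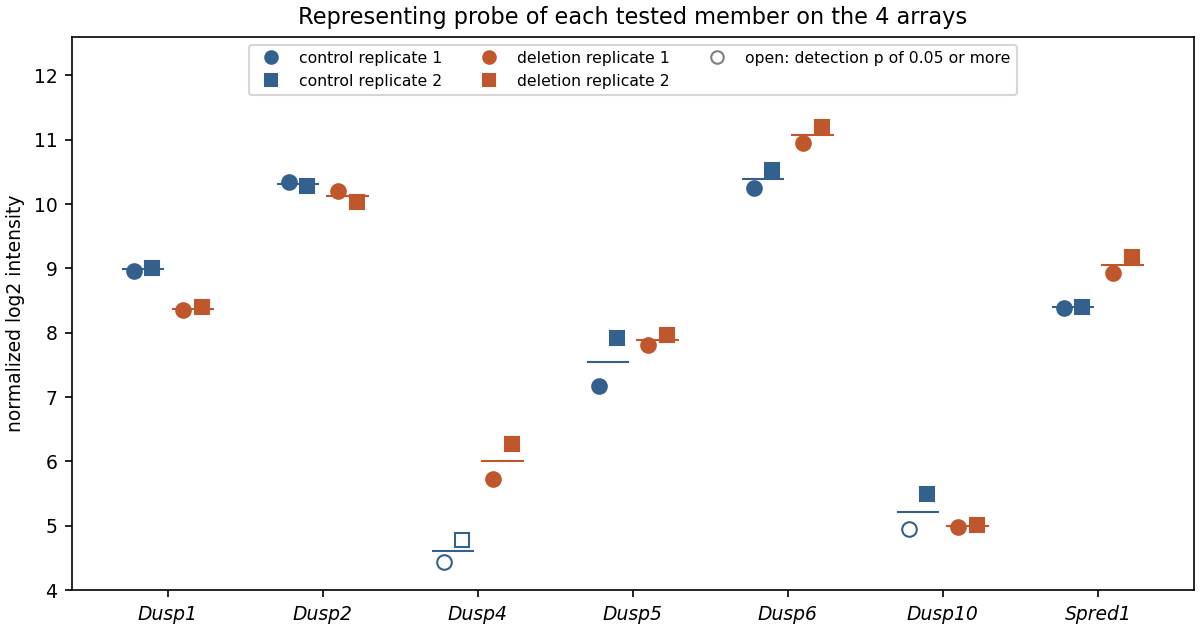
Normalized log2 intensity (vertical axis) of the brightest detected probe of each tested member (horizontal axis) on the 4 arrays. Blue marks are controls, orange marks deletion samples, circles replicate 1 and squares replicate 2; short lines are group means and open marks are not detected. Dusp1 and Dusp2 lie lower, and Dusp4, Dusp6 and Spred1 lie higher, on both deletion arrays than on both control arrays. Of these the change of Dusp2 did not pass.

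Among the phosphatases that act in the nucleus, Dusp1 and Dusp4 moved in opposite directions. Dusp1, an inducible phosphatase with a preference for the stress kinases p38 and JNK, had scanner signals of 574.1 and 670.7 in controls and 387.3 and 399.6 after deletion. Normalized, these were 8.96 and 9.01 in controls and 8.35 and 8.40 after deletion. Both deletion arrays were below both control arrays, and replicates of a group differed far less than the groups did. Dusp1 was 1.53-fold lower, with a log2 change of -0.61 (SE 0.11, 95% confidence interval -0.91 to -0.32, adjusted p = 0.0224). Its log2 change lay between -0.64 and -0.58 with any 1 array left out. Only the fit without control replicate 1 kept the call (adjusted p = 0.0421). Leaving out control replicate 2 gave 0.0588, and leaving out the deletion arrays gave 0.131 and 0.119.

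Dusp4, a nuclear phosphatase of ERK and JNK, was dim. Its brightest probe read 4.44 and 4.79 on the control arrays, where it was not detected, and 5.74 and 6.26 on the deletion arrays, where it was detected on both. The control values have only an upper bound, because they do not stand above background. Against the lowest detectable signal of those arrays Dusp4 was at least 1.96-fold higher after deletion with this processing, a bound that was not tested. The log2 difference of the measured means was 1.39 (SE 0.23, adjusted p = 0.0182). This size depended on background handling. The log2 change was 0.53 without background correction, 0.73 with a correction that uses no control beads and 0.46 in the authors' processed values. The call held in all 3, which used the same detection filter. The probe passed that filter only through the deletion arrays, where it read higher. Without a detection filter the call also held (adjusted p = 0.0355). Leaving out control replicate 1 ended the call (adjusted p = 0.0533), as did leaving out deletion replicate 2 (0.0752). The other 3 Dusp4 probes were not tested. The brightest of them was detected on deletion replicate 2 alone, at 5.49, and the other pair on no array.

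Dusp2, a nuclear phosphatase found mainly in blood cells, read 10.35 and 10.27 in controls and 10.20 and 10.04 after deletion. Both deletion arrays were the lower ones, by little, and the change did not pass (log2 change -0.19, 95% confidence interval -0.52 to 0.13, adjusted p = 0.299). A dimmer Dusp2 probe read 8.83 and 8.92 against 8.88 and 8.24, with the groups overlapping, and did not pass either (log2 change -0.32, adjusted p = 0.359).

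Dusp5, a nuclear phosphatase selective for ERK, read 7.17 and 7.92 in controls and 7.81 and 7.97 after deletion. The control arrays lay farther apart than the group means, and control replicate 2 overlapped the deletion arrays. Its log2 change was 0.35 with a 95% confidence interval of -0.37 to 1.07 (adjusted p = 0.382). Control replicate 1 decided the sign: without it the log2 change was -0.03, and without control replicate 2 it was 0.73 (adjusted p = 0.0526).

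Dusp6 is the cytoplasmic, ERK-selective phosphatase whose transcript is a common readout of ERK activity. Its brightest probe had scanner signals of 1321.2 and 1784.7 in controls and 1918.9 and 2254.1 after deletion, or 10.25, 10.53, 10.95 and 11.20 after normalization. Both deletion arrays exceeded both controls, but replicates of each group also differed. Dusp6 was 1.60-fold higher (log2 change 0.68, SE 0.17, 95% confidence interval 0.25 to 1.12, adjusted p = 0.0428). The call was lost without any 1 of the 4 arrays, with adjusted p between 0.0562 and 0.196, and also with median scaling (0.102) and without a detection filter (0.0677). A dimmer Dusp6 probe read 7.41 and 7.58 against 7.53 and 7.96, with overlapping groups and a log2 change of 0.25 (95% confidence interval -0.24 to 0.74, adjusted p = 0.357), and with the mean of both probes the call was lost (log2 change 0.47, adjusted p = 0.0814). The other Dusp6 probe was not detected on any array.

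Dusp10, which prefers p38 and JNK, lay at the edge of detection. Its brightest probe read 4.95 and 5.50 in controls, where replicate 1 was not detected, and 4.98 and 5.02 after deletion. Control replicate 2 was the only array that stood apart, and the groups overlapped. The log2 change was -0.22 (95% confidence interval -0.78 to 0.33, adjusted p = 0.462), and 0.05 without control replicate 2. A probe of nearly the same brightness read 5.29 and 5.48 in controls and 4.59 and 4.84 after deletion, where it was detected on neither array. By that probe Dusp10 was at least 1.35-fold lower with this processing, a bound that was not tested. The log2 change of the measured means was -0.67 (SE 0.15, adjusted p = 0.0357). The call was lost without any 1 array, with log2 changes between -0.80 and -0.54. That probe entered the test only through the control arrays, and without a detection filter its call was also lost (adjusted p = 0.0514).

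**Figure D2:**
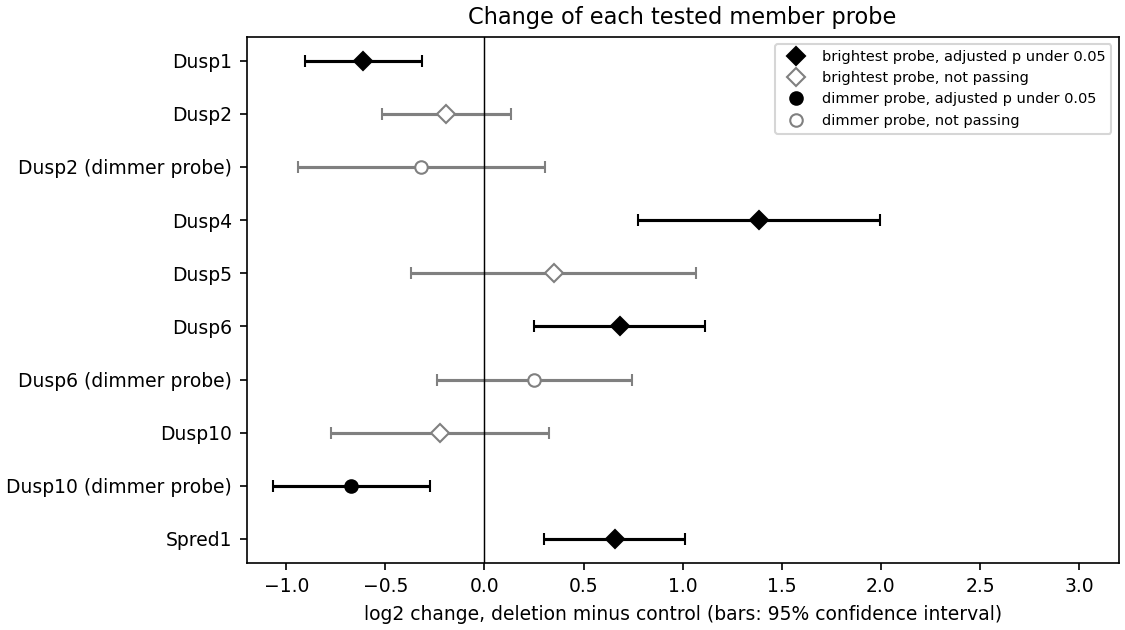
Log2 change, deletion minus control (horizontal axis), of the 10 tested member probes, with 95% confidence intervals as bars. Diamonds are the brightest probe of a gene, circles dimmer probes, and filled marks have an adjusted p under 0.05. Dusp1 and the dimmer Dusp10 probe lie below 0, and Dusp4, Dusp6 and Spred1 above it.

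Among the Sprouty and Spred members Spred1 alone passed the detection filter. Spred1 read 8.39 and 8.40 in controls and 8.93 and 9.18 after deletion. The controls were nearly equal, and both deletion arrays lay above them. Spred1 was 1.58-fold higher (log2 change 0.66, SE 0.14, 95% confidence interval 0.30 to 1.01, adjusted p = 0.0298). The call was lost without any 1 of the 4 arrays (adjusted p between 0.0664 and 0.155) and with median scaling (log2 change 0.48, adjusted p = 0.0715), a scaling that also moved the median of all genes to -0.11.

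The brightest of the 3 Spred2 probes read 4.41 and 4.71 in controls and 4.73 and 5.31 after deletion, and only deletion replicate 2 detected it. The other Spred2 probes were not detected on any array. The single Spry2 probe had detection p-values between 0.618 and 0.727 and scanner signals between 86.2 and 101.5, so these arrays hold no level for Spry2 above background.

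The promoters of Dusp1 and Dusp6 are printed because they are the proximal promoters of phosphatase genes that moved in opposite directions by their brightest probes. Each is the 250 bases before the RefSeq gene start on build GRCm38.p6, at chr17:26508473-26508722 on the minus strand for Dusp1 and at chr10:99262981-99263230 on the plus strand for Dusp6. Capitals mark the core of the cAMP response element, TGACGT, on either strand.
Dusp1: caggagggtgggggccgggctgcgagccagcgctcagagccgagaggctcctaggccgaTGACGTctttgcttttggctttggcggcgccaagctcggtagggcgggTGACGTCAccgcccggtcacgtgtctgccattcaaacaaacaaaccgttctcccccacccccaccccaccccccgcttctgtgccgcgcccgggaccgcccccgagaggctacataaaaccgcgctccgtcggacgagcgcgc
Dusp6: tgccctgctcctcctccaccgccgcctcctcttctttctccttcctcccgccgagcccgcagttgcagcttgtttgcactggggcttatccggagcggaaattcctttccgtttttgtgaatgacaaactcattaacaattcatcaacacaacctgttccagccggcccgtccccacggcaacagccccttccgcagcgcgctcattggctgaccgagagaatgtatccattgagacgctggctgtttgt
Dusp1 had 3 matches, beginning at -191, -143 and -141 from the gene start, of which the last 2 overlap in 1 palindrome that reads the same on both strands. Dusp6 had 0 matches to it. Over 32851 promoters of this length 6.47% hold it. In all, 9 of the 10 members had a RefSeq promoter window, and Dusp4 had none. The element was also present once each in Dusp5 and Spred2. Dusp5, whose transcript did not pass, had 2 adjoining CArG boxes, the site of serum response factor, at -82 and -72 (1.47% of promoters hold a CArG box). An AP-1 site (TGANTCA, 6.75% of promoters), an ETS core (CCGGAA, 12%) and a C/EBP-ATF site (TGATGNAA, 3.45%) were present in 0 of these 9 windows. A match is a description of letters and not of a bound site.

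6 related lists placed these members in their pathway, and their shares of called genes stood at 22.2% to 45.5% against the 29% over all genes. Of 6 tested phosphatases of MAP kinases outside the members, 1 rose and 1 fell (median log2 change -0.03). Dusp7, the close relative of Dusp6 and likewise cytoplasmic and ERK-selective, read 8.06 and 8.18 in controls and 9.12 and 9.46 after deletion. It was 2.25-fold higher (log2 change 1.17, SE 0.16, adjusted p = 0.0115). Its call was lost without deletion replicate 2 (adjusted p = 0.0623). Dusp8, a phosphatase of JNK and p38, read 6.36 and 6.48 in controls and was not detected on either deletion array by its representing probe. Against the lowest detectable signal it was at least 2.77-fold lower with this processing, a bound that was not tested. The log2 change of the measured means was -1.66 (adjusted p = 0.00543). The call of that probe held without any 1 array. A second Dusp8 probe was also detected on both control arrays and neither deletion array. It was at least 3.30-fold lower with this processing, and that bound was not tested either. The log2 change of its measured means was -2.20 (adjusted p = 0.00287). Both Dusp8 probes entered the test only through the control arrays. Without a detection filter the call of the representing probe held (adjusted p = 0.00832). The fall of the representing probe was smaller in the authors' processed values (log2 change -0.55, against -1.66).

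Of 9 tested feedback inhibitors of the RAS to ERK path outside the members, 1 rose and 1 fell (median 0.16). Lrig1, which limits receptor tyrosine kinases, read 7.06 and 7.04 in controls and 5.58 and 5.52 after deletion. It was 2.83-fold lower (log2 change -1.50, SE 0.11, adjusted p = 0.00311), and its call held without any 1 array. Without background correction its log2 change was -0.73. Errfi1, an inhibitor of the EGF receptor, was 1.61-fold higher (adjusted p = 0.0388), a call lost without any 1 array. Spry4, the one Sprouty gene that was tested, read 5.26 and 5.11 in controls and 5.09 and 4.99 after deletion and did not pass (adjusted p = 0.433).

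In the RAS to ERK cascade 2 of 18 tested genes rose and 3 fell (median 0.12). Gab1, a docking protein that links receptors to RAS, fell from 9.20 and 9.22 to 6.38 and 6.13, 7.72-fold. Its log2 change was -2.95 (SE 0.14, adjusted p = 0.00148), against -2.08 without background correction and -1.99 in the authors' values. Map2k1, which encodes the ERK kinase MEK1, was 1.59-fold lower (adjusted p = 0.0174), and its call was lost without either deletion array (adjusted p = 0.104 and 0.112). Rasgrp4, which activates RAS, had a log2 change of 0.81 (adjusted p = 0.0145) by its brightest probe, while 2 dimmer probes did not pass (adjusted p = 0.350 and 0.0635). The adaptor Shc1 had a log2 change of -0.52 (adjusted p = 0.0494). Both calls were lost without either deletion array, and that of Shc1 also without control replicate 2. In the JNK and p38 cascades 1 of 18 rose and 3 fell (median 0.04). Map3k8, a kinase that activates MEK, was the one that rose, 3.24-fold (log2 change 1.69, SE 0.13, adjusted p = 0.00344), from 6.45 and 6.62 to 8.30 and 8.16. Its log2 change was 1.12 without background correction and 1.05 in the authors' processed values. The 3 that fell, Map2k3, Map3k1 and Gadd45a, were 1.55-fold, 1.49-fold and 1.45-fold lower, and each call was lost without control replicate 2 or either deletion array, that of Map3k1 also without control replicate 1. A dimmer Map3k1 probe did not pass (log2 change -0.38, adjusted p = 0.114).

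Of 20 tested transcripts listed here as ERK-responsive, 7 rose and 1 fell (median 0.36), a share of 40% called. Ccnd1, cyclin D1, read 8.43 and 8.26 in controls and 10.78 and 10.97 after deletion. It was 5.78-fold higher (log2 change 2.53, SE 0.14, adjusted p = 0.00176). Klf6 was 2.23-fold higher (adjusted p = 0.00553), and the calls on both genes held without any 1 array. Ier3 and Egr1 were 2.27-fold and 2.25-fold higher, with calls that were lost without deletion replicate 1 (adjusted p = 0.0530 and 0.0619). Fos, Junb and Myc did not pass (log2 changes 0.31, 0.20 and 0.12). The gene that fell, Jun (log2 change -0.61, adjusted p = 0.0266), was chosen after its value was seen, and its call was lost without any 1 array and without background correction (adjusted p = 0.0880). Only 2 of the 20 genes were called without deletion replicate 1, and 4 without deletion replicate 2.

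Receptors upstream of RAS moved both ways, 3 of 11 up and 2 down (median 0.0085). Epor, the erythropoietin receptor, fell from 8.78 and 9.21 to 6.12 and 5.67, 8.56-fold. Its log2 change was -3.10 (SE 0.23, adjusted p = 0.00308), against -1.93 in the authors' values. It is also in the erythroid marker list. Tek, the angiopoietin receptor, read 5.25 and 5.43 in controls, near the lowest detected signal, and 6.52 and 6.38 after deletion. Its log2 change was 1.11 (adjusted p = 0.00822), a call lost without either deletion array. The log2 change was 0.47 without background correction and 0.39 in the authors' processed values. Kit, the stem cell factor receptor, was 1.76-fold lower by its brightest probe (adjusted p = 0.0346), a call lost without any 1 array, while by its dimmer probe the log2 change was 0.44 (adjusted p = 0.386). Of the 26 genes called in these lists, 7 were called in all 4 fits with 1 array left out, and 7 in none of them.

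**Figure D3:**
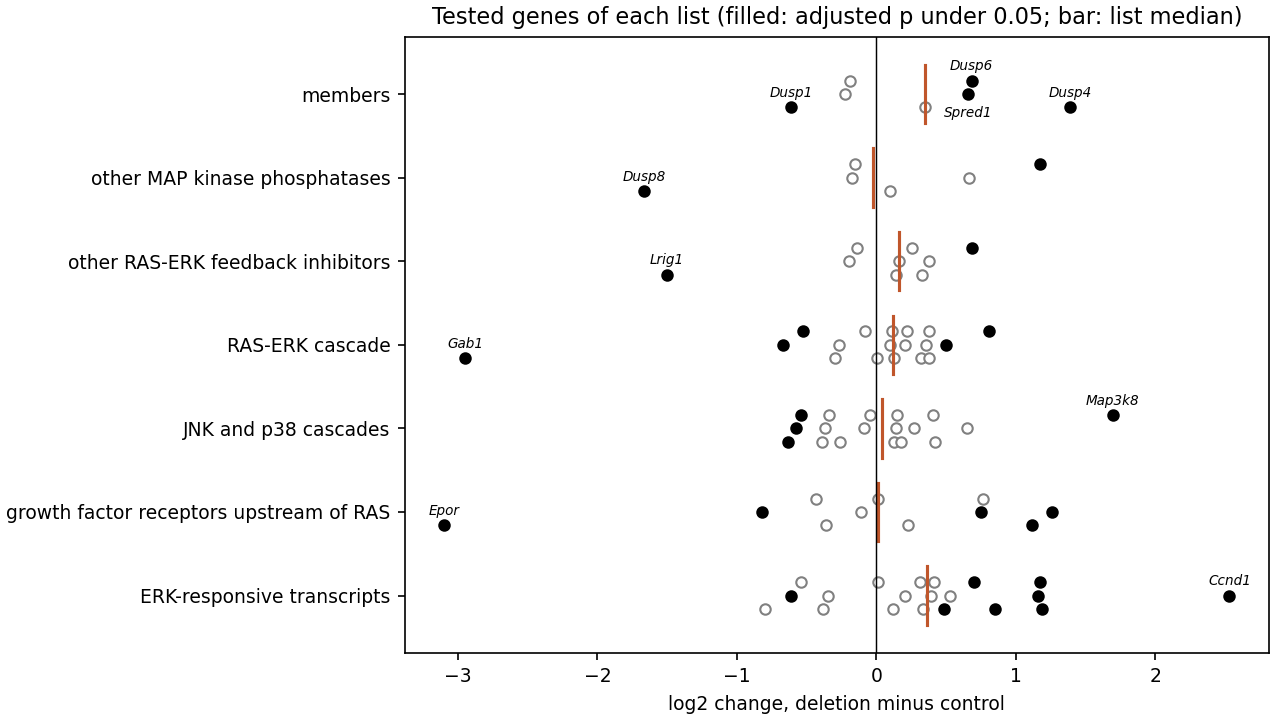
Log2 change, deletion minus control (horizontal axis), of every tested gene of the members and of 6 related lists (vertical axis). Filled marks have an adjusted p under 0.05, bars are list medians, and called members and called genes beyond 1.5 log2 units are named. Medians lie between -0.03 and 0.36, with Gab1, Epor and Ccnd1 farthest from 0.

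Marker transcripts of several cell types differed between the groups, and in bulk RNA fewer cells of a type and less RNA per cell cannot be told apart. All 8 tested B lymphoid markers and 8 of 9 erythroid markers fell, and 7 of 8 T and NK markers, 4 of 5 mast and basophil markers, 4 of 6 megakaryocyte markers and 5 of 7 monocyte and dendritic markers rose. In the megakaryocyte list 1 marker, Gp9, fell (log2 change -0.90, adjusted p = 0.0497). Summed normalized intensities of the erythroid markers were 52090 and 54680 in controls and 9566 and 2870 after deletion. In that list Hba-a1 and Slc4a1 differed most between the deletion arrays, at 12.52 and 8.28 and at 8.73 and 4.38. Hba-a1 was the erythroid marker that did not pass (adjusted p = 0.0990), and bright genes weigh most in such a sum. The B lymphoid sums were 17000 and 16800 against 1091 and 1431. The T and NK sums were 9948 and 9886 against 21670 and 17750, the mast and basophil sums 9314 and 8383 against 18260 and 19780, and the megakaryocyte sums 1180 and 1238 against 2131 and 3024. The monocyte and dendritic sums were 4376 and 4669 against 9358 and 8862. Neutrophil markers, 2 up and 2 down of 10, had sums of 37780 and 40170 against 35280 and 34580. The 2 that fell were Elane and Prtn3 (log2 changes -3.13 and -0.76), and the 2 that rose Camp and Ngp (0.76 and 0.69). Of 8 tested stem and early progenitor markers 5 rose and 2 fell, with sums of 4849 and 5159 against 7714 and 7574, while Flt3 and Hlf were not tested. Among them the surface markers Ly6a and Cd34 rose (log2 changes 2.54 and 1.05), and Kit fell as given above. The other that fell was Gfi1b (log2 change -1.69, adjusted p = 0.00289). Kit and Cd34 were detected on all 4 arrays, as was Cd3e, a marker of T cells. Of the B lymphoid list Cd79a and Pax5 were not tested, and of 8 stroma and endothelium markers 4 were not tested, Col1a1, Col3a1, Kdr and Lepr, and 2 rose. The part of these differences in the changes of Dusp1, Dusp4, Dusp6 and Spred1 was not tested.

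**Figure D4:**
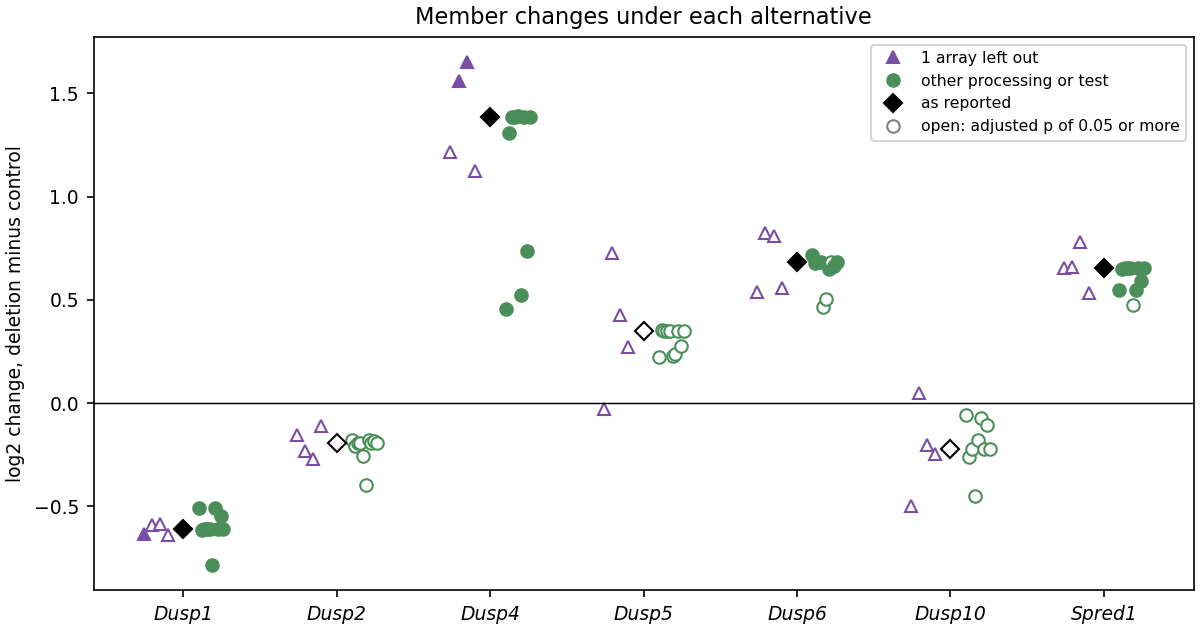
Log2 change, deletion minus control (vertical axis), of each tested member (horizontal axis) as reported (black diamonds), with 1 array left out (purple triangles) and under other processing or tests (green circles); open marks have an adjusted p of 0.05 or more. Dusp4 ranges from 0.46 to 1.65, and the sign turns for Dusp5 and Dusp10 when 1 control array is left out.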

How the data were processed

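Total RNA of 4 samples was hybridised as biotin-labelled cRNA to Illumina WG-6 V2 mouse arrays, per the labels' protocols and the series' design text. Per the file headers, the deposited table holds a non-normalized signal intensity and a detection p-value for each probe and array. GenomeStudio is named by the submitters' processing notes, and no source used here gives its version or background subtraction. A second deposited table has the authors' processed intensity, which its values show to be linear and quantile normalized (column medians 100.5, 100.5, 100.6 and 100.6, the same lowest and highest value in each), and served as an alternative.

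Intensities were corrected with limma 3.58.1 (R 4.3.3) by the neqc model, with negative controls inferred from the detection p-values and an offset of 16, then quantile normalized and put on a log2 scale, which stretches changes of dim probes. Probes with detection p under 0.05 on at least 2 arrays were kept (18367). Names came from the platform annotation, updated by Entrez ID to RefSeq (34807 of 34885 probes with 1 gene), and for 1722 probes without a platform gene from the scanner table, where its name is a RefSeq symbol. The 8674 others stayed unnamed, including 18 with several genes. The Dusp5 probe is named by the platform annotation alone. Each gene was read from its brightest kept probe. Groups, taken from sample titles, were compared with eBayes after lmFit (2 residual and 2.72 prior degrees of freedom), and p-values were adjusted over all kept probes by Benjamini-Hochberg. A bound sets one group's mean against, per array, the higher of the lowest detected signal and the probe's own. The pipeline was tested on simulated data.

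The members and lists were chosen with earlier results of these data known. Genes named are all members, Atad3a and up to 4 called genes of largest change per list. A few were chosen after their values were seen: Jun, Fos, Junb, Myc, Spry4, and the markers Cd3e, Cd34, Gp9, Ngp, Prtn3 and those listed as untested. Some genes that the rule names are not reported here. Alternatives varied the background correction, normalization, detection filter, variance prior, replicate block, source of values, probe summary and arrays.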

Additional observations from a re-analysis of the deposited data

How the results depend on the processing

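With each array left out in turn, log2 changes ranged from -1.15 to -0.98 for Atad3a, -0.64 to -0.58 for Dusp1, 1.12 to 1.65 for Dusp4, 0.54 to 0.82 for Dusp6, 0.53 to 0.78 for Spred1, -0.029 to 0.73 for Dusp5 and -0.50 to 0.051 for Dusp10; the last pair did not pass in any of these fits. Fewer arrays leave fewer degrees of freedom, and a lone array is assumed to vary like the other group. Called genes ranged from 728 to 2680 (3015 with all arrays), called members from 0 to 1 (4), and called genes from 2 to 9 for ERK-responsive transcripts (8), 1 to 2 for receptors (5), 1 to 5 for the JNK and p38 cascades (4), 1 to 4 for the RAS-ERK cascade (5), 1 to 2 for other phosphatases (2) and 1 to 1 for other feedback inhibitors (2). Median scaling left 2 members called, with Dusp6 at 0.50 and Spred1 at 0.48, and moved the median of all genes to -0.11, so that 39.6% of calls were higher, where quantile normalization gave 50.9%. Dusp6 was 0.68 without a detection filter (adjusted p = 0.0677) and 0.47 with the mean of all detected probes. Other phosphatases called numbered 1 with detection p under 0.01 on all 4 arrays and 4 with the mean of probes. Other feedback inhibitors called numbered 4 without background correction, 4 with an intensity trend and robust prior, 5 in the authors' processed values, and 1 each with median scaling, without a detection filter and with the replicate block. The cause of these shifts was not tested.

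The replicate block, for a number that pairs the samples by no label (correlation of same-numbered deviations 0.025), gave 1 call in the JNK and p38 cascades and 3 in the RAS-ERK cascade, and it changed no member's call. Dusp4 and Dusp10 have no value with detection p under 0.01 on all 4 arrays, since their probes do not pass it, and Spry1, Spry2 and Spred2 have no reported change to compare. Signals near background limit Dusp4, Dusp10 and Spred2. Over all results and alternatives, 167 values kept their direction and side of the threshold or stayed within 1.5 times the count, 35 counts moved further, 18 changes no longer passed and 2 turned sign.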
